A study of Mus musculus with 2 samples.

Results

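The genes described here are 7 transcripts that mark resident-type macrophages, Folr2, Lyve1, Mrc1, Cbr2, Selenop, Fcrls and Vsig4, read out of 24510 genes measured in single immune cells of mouse melanoma. They were chosen by name, with earlier results of these data known, so counts of members are no independent evidence. Tyr knockout, Oca2 knockout or WT B16F10 cells were placed under the skin of female C57BL/6 mice, with 3 mice for each of the 3 tumour genotypes, and cells bearing the leukocyte marker CD45 were sorted from the tumours. B16F10 is an established mouse melanoma cell line, Tyr encodes tyrosinase and Oca2 a melanosomal transport protein, both of which act in pigment synthesis. The host mice carried no named mutation, and their age was not given in the sources used here. The cells of each genotype were pooled over mice and labelled with a sample tag, and all went through 1 capture on the BD Rhapsody system. The labels do not tie the tags (8, 9 and 10) to genotypes, so no genotype is compared here. Each tag is treated as 1 pool of tumours, and classes of cells are compared across the 3 tags. The p-values therefore rest on how much a class difference varies over these 3 pools, which differ in tumour genotype and in animals.

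Tissue-resident macrophages can renew themselves locally or be replaced from blood monocytes, and in many mouse organs they carry a shared set of endocytic and scavenger receptors. In tumours, macrophages with this set have been described beside monocyte-derived ones, often near vessels. Folr2 encodes folate receptor beta, Lyve1 a hyaluronan receptor that lymphatic endothelium also carries, Mrc1 the mannose receptor CD206, and Vsig4 a complement receptor known from liver Kupffer cells. Fcrls encodes an Fc receptor-like scavenger protein known from mouse microglia. Selenop encodes the secreted selenium carrier selenoprotein P, which many cell types make, and Cbr2 encodes a carbonyl reductase.

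Of 14899 cells, 13090 carried 1 tag, 1448 were multiplets and 361 were undetermined. Tags 8, 9 and 10 had 4538, 4232 and 4320 cells and 21662592, 21753076 and 23683689 molecules. After limits on detected genes and mitochondrial share, 10491 single-tag cells were kept. C1q macrophages were the 1224 kept cells with at least 10 molecules of C1qa, C1qb and C1qc together and no lymphoid, plasmacytoid, neutrophil or melanoma signature (340, 409 and 475 cells in tags 8, 9 and 10). Arg1-high C1q-low macrophages were 317 cells with at most 4 C1q molecules and at least 10 of Arg1, the arginase gene. Ly6c2 monocytes were 874 cells with at most 4 molecules each of C1q and Arg1, at least 2 of Ly6c2 and at least 3 of a short set of myeloid genes that includes Lyz2, Csf1r and Fcgr1. Genes used to gate the cells are no result here. Of the C1q macrophages, 115 lay just inside the gate with 10 to 12 C1q molecules, and 179 kept cells lay just outside with 7 to 9. Macrophage markers summed to 5731 to 7063 molecules per 1e+06 molecules of the class (CPM) over tags in C1q macrophages, against 1013 to 1183 CPM in Arg1-high cells and 1083 to 1292 CPM in monocytes. The median kept cell had 3489 molecules, and the median C1q macrophage 9572.5.

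In the GENCODE vM21 annotation of build GRCm38, all 7 are protein-coding genes, and the counts cover each whole gene. Folr2 lies at chr7:101839988-101857194 and Lyve1 at chr7:110850607-110863239, both on the minus strand with 5 and 6 exons in the first listed transcript. Mrc1 lies at chr2:14229392-14332057 on the plus strand with 30 exons, and Cbr2 at chr11:120729489-120732114 on the minus strand with 8. Selenop spans chr15:3268547-3280508 on the plus strand with 4 exons. Its last 439 bases overlap Ccdc152, which runs on the opposite strand. Fcrls lies at chr3:87250758-87263738 with 8 exons and Vsig4 at chrX:96247203-96293438 with 7, both on the minus strand.

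Promoters of 3 members are shown, since Folr2 and Cbr2 had a high odds ratio of detection in the same cells, and Fcrls was called lower in Arg1-high C1q macrophages where Folr2 was called higher. Each holds the 250 bases before and 50 bases after the annotated start, 5′ to 3′ on the gene's strand, from RefSeq's GRCm38.p6 table. All 3 genes are on the minus strand. Capitals mark GAGGAA or its reverse TTCCTC, the core bound by the myeloid factor PU.1, and TGCTGA or its reverse TCAGCA, a half-site of MAF factors.
Folr2, chr7:101857141-101857440: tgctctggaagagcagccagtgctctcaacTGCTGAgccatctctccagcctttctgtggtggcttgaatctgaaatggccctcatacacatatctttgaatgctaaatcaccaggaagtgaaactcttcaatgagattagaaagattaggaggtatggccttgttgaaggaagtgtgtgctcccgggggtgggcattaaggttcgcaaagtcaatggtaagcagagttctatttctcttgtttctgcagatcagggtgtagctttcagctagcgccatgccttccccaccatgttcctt
Cbr2, chr11:120731972-120732271: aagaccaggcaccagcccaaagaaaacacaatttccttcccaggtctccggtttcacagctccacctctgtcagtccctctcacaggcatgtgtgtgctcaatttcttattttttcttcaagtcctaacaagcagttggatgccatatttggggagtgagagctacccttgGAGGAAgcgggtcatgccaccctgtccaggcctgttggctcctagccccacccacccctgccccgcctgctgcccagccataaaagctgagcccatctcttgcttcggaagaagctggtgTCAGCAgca
Fcrls, chr3:87263475-87263774: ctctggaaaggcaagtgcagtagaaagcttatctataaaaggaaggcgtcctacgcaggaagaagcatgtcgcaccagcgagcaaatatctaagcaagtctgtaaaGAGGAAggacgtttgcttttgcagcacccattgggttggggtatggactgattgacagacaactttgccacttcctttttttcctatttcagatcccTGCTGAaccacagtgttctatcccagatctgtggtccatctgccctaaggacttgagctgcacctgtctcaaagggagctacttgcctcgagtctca
The Folr2 window held 1 MAF match, as did a second Folr2 window that is not shown, while the Cbr2 and Fcrls windows each held 1 PU.1 and 1 MAF match. Over the 6 members with an entry, the PU.1 letters stood in a promoter of 5 (Cbr2, Fcrls, Mrc1, Selenop and Vsig4) and the MAF letters in a promoter of 4 (Cbr2, Fcrls, Folr2 and Vsig4). Counted by window, 6 of 9 member windows held the PU.1 letters and 5 of 9 the MAF letters. Overlapping Selenop windows share 1 of these PU.1 matches, which is counted in each. Of all 32851 promoter windows of this length, 28.3% held the PU.1 letters and 19.5% the MAF letters on either strand. The 2 motifs do not overlap each other in these windows, and a match is a match of letters and no measured binding.

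Every member had its highest summed level in C1q macrophages among the 12 gates. C1q macrophages held 69.8% of the 3331 Folr2 molecules of all kept cells, 74.3% of 530 Lyve1 molecules, 70.7% of 1764 Fcrls molecules and 66.8% of 4937 Cbr2 molecules. The shares were 59.1% of 15572 for Mrc1 and 59.2% of 31974 for Selenop. Vsig4 had 44 molecules in all, 20 of them in 4 C1q macrophages and the other 24 in 1 cell that fell in no gate. Below that first place, ordered by the median over tags, the members differed. After C1q macrophages, Folr2 was next highest in Arg1-high C1q-low macrophages, whose range over tags overlapped that of C1q macrophages. Mrc1 was next highest in Arg1-high cells too, at 301 to 496 CPM against 587 to 883 CPM in C1q macrophages, without overlap. Cbr2, Selenop, Fcrls and Lyve1 were next highest in the other myeloid cells, at 44.1 to 86.4, 353 to 614, 17.0 to 39.8 and 0 to 1.68 CPM. C1q macrophages lay above each of these ranges. The order by median leaves aside single high pools, such as the Arg1-high pool of tag 10 with 240.5 CPM of Cbr2 and 79.8 CPM of Lyve1. The other myeloid cells were 1287 cells in no other gate, without an excluded signature and with at least 3 molecules of the myeloid set. They were not limited to low C1q, so cells just outside the C1q gate could be among them. Their macrophage markers summed to 1565 to 1865 CPM over tags. They held only a median of 2300 molecules each.

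**Figure D1:**
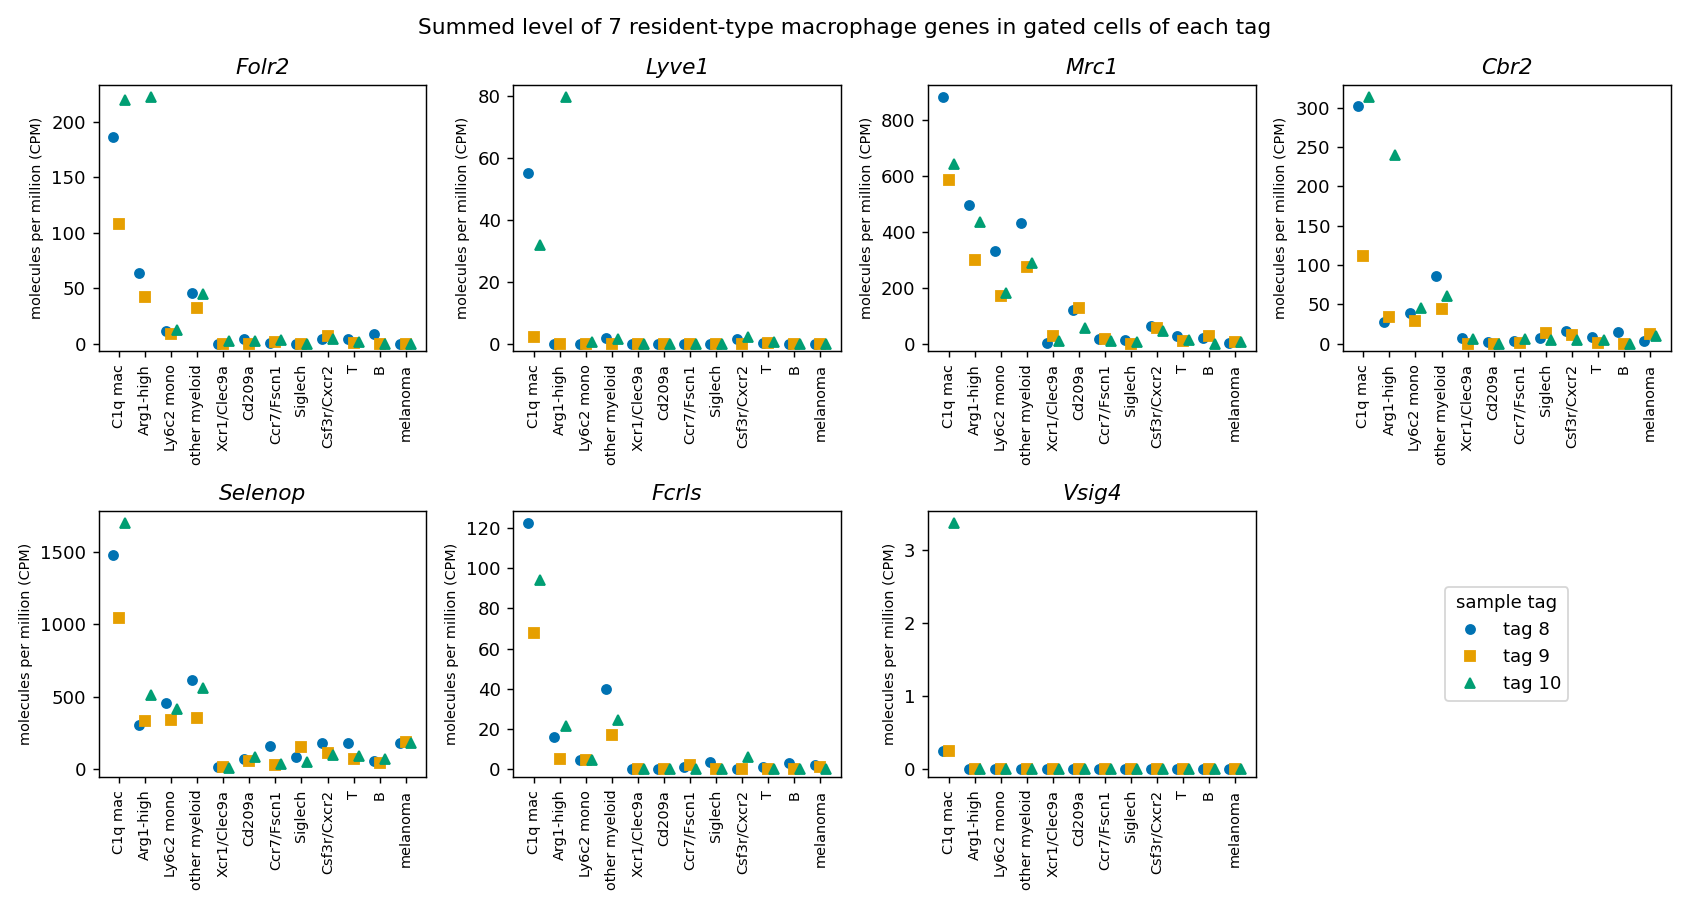
Level in CPM (vertical axis, linear, a scale for each gene) of the 7 members in 12 gated classes, 1 point per sample tag. C1q macrophages stand at the left of each panel, with Folr2 at 186, 108 and 220.0 CPM in tags 8, 9 and 10. Arg1-high cells of tag 10 reach that range for Folr2, Cbr2 and Lyve1.

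At equal depth, C1q macrophages also had the highest shares of single cells with a member. With every cell thinned to 2000 molecules, Folr2 was found in 19.3% of 1189 C1q macrophages, 12.6% of 310 Arg1-high cells, 1.48% of 741 monocytes and 0.0486% of 2056 T cells. T cells should lack Folr2, and their share serves as the background. Before thinning, 37.0% of C1q macrophages had a Folr2 molecule, at a median of 9572.5 molecules per cell against 3550.5 in T cells. Mrc1 was found in 51.8% of thinned C1q macrophages, 34.8% of Arg1-high cells, 19.3% of monocytes and 1.95% of T cells. Cbr2 was found in 20.2% of C1q macrophages, 8.06% of Arg1-high cells, 3.78% of monocytes and 0.778% of T cells. Fcrls was found in 9.25% of C1q macrophages, 2.26% of Arg1-high cells, 1.08% of monocytes and none of the 2056 T cells, which allows a share of up to 0.146% (3 counts of the total).
Selenop was the member least restricted to macrophages. It was found in 64.3% of thinned C1q macrophages, against 29.0% of Arg1-high cells, 38.5% of monocytes, 29.3% of melanoma cells and 18.4% of T cells. There were 2.06 Selenop molecules per Mrc1 molecule in C1q macrophages and 1.85 in monocytes, against 7.01 in T cells and 50.8 in melanoma cells. The ratio of Folr2 to Mrc1 was 0.253 in C1q macrophages, 0.258 in Arg1-high cells and 0.0498 in monocytes.
A minority of C1q macrophages held most of the molecules of the rarer members. C1q macrophages were ranked anew by the molecules of each member, so the top 123 cells can differ between members. These held 81.6% of Fcrls, 73.6% of Cbr2 and 67.3% of Folr2 molecules, but 51.5% of Selenop and 46.3% of Mrc1 molecules. A member found in fewer cells tends to give a higher share, with Fcrls in 280 cells and Mrc1 in 884. A positive C1q macrophage had a median of 8 Selenop, 6 Mrc1, 3 Folr2, 3 Cbr2, 2 Fcrls and 2 Lyve1 molecules. These intervals and shares cover counting error only, since molecules of 1 cell are not independent samples.

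C1q macrophages were then set against Arg1-high C1q-low macrophages, to ask which members go with C1q rather than with tumour macrophages in general. Fcrls, Selenop and Mrc1 were higher in C1q macrophages, and Folr2, Cbr2 and Lyve1 did not pass the test. Fcrls had 122, 67.8 and 94.4 CPM in C1q macrophages of tags 8, 9 and 10, against 16.2, 5.29 and 21.8 CPM in Arg1-high cells. Every C1q pool stood above every Arg1-high pool, and the log2 fold change was 2.49 ± 0.23 (SE, edgeR quasi-likelihood test with the tag as a term, adjusted p = 3.07e-05, n = 3 tags). Here and below, SE is the log2 fold change divided by the square root of the F statistic.
Selenop had 1478, 1042 and 1698 CPM in C1q macrophages, against 303, 335 and 514 CPM in Arg1-high cells. The groups did not overlap, and the log2 fold change was 1.69 ± 0.14 (edgeR, adjusted p = 1.55e-05, n = 3 tags). Mrc1, the endocytic lectin, had 883, 587 and 645 CPM in C1q macrophages, against 496, 301 and 435 CPM in Arg1-high cells. Its groups did not overlap either, with a log2 fold change of 0.59 ± 0.12 (edgeR, adjusted p = 0.00656), which missed the threshold without tag 9 (0.50, adjusted p = 0.103).
Folr2 had 186, 108 and 220.0 CPM in C1q macrophages, against 63.9, 42.3 and 222 CPM in Arg1-high cells. The Arg1-high pool of tag 10 stood with the C1q pools and the other two did not. The log2 fold change was 0.60 ± 0.26 (edgeR, adjusted p = 0.155), and it was 1.28 without tag 10 (adjusted p = 0.000527) and 0.26 without tag 8. Cbr2, the carbonyl reductase, had 303, 112 and 314 CPM in C1q macrophages, against 27.9, 33.5 and 240.5 CPM in Arg1-high cells. Tag 10 again held the high Arg1-high value, of which 88 molecules came from 1 cell. The log2 fold change of Cbr2 was 1.29 ± 0.42 (edgeR, adjusted p = 0.0606), with 2.64 without tag 10 (adjusted p = 0.000126) and 0.55 without tag 8.
Lyve1 had 55.3, 2.04 and 31.8 CPM in C1q macrophages, against 0, 0 and 79.8 CPM in Arg1-high cells. All 66 of its molecules in Arg1-high cells came from 1 cell, and the log2 fold change was 0.24 ± 0.76 (edgeR, adjusted p = 0.883). Without tag 8 it was -1.36 and called lower (adjusted p = 0.0399). Vsig4 had 20 molecules in C1q macrophages, 17 of them in 1 cell, and none in Arg1-high cells. Against a floor of 3 counts over the Arg1-high group this is 1.27-fold. The counting intervals overlapped, at 0.928 to 2.35 CPM against 0 to 1.47 CPM. Vsig4 had too few molecules for the test.
Of the 6 tested members, 3 were thus higher, beside 5.19% of all 8730 genes called higher and 8.79% called lower. The members' median log2 fold change was 0.94, against 0.00 over all genes. Scaling by plain library size moved the median of all genes to 0.19 and the calls from 453 higher and 767 lower to 1134 higher and 486 lower. With it 5 members were called higher.

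The other gene lists separated the same pair of classes. In C1q macrophages the MHC class II list, 7 of 7 genes, was higher, with H2-Aa, a class II chain, at 3063, 4675 and 3995 CPM against 1126, 1478 and 652.5 CPM in Arg1-high cells (log2 fold change 1.70 ± 0.17). All 9 measured genes of hypoxia and glycolysis were lower in C1q macrophages. Vegfa, which encodes an angiogenic growth factor, had 484, 455 and 493.5 CPM in C1q macrophages against 1010, 955 and 1172 CPM in Arg1-high cells (-1.31 ± 0.09). Among 11 tested genes often seen with the members, 4 were higher and 3 lower. The chemokine gene Ccl8 (4.04 ± 0.19), the growth factor genes Igf1 (1.81 ± 0.25) and Gas6 (2.55 ± 0.29) and the iron exporter gene Slc40a1 (3.14 ± 0.38) were higher. The platelet factor gene Pf4 (-0.86 ± 0.24), the factor XIII gene F13a1 (-0.85) and Ccl24 (-1.68) were lower. Among 12 lipid-associated genes, 3 were higher, with Apoe at 1.09 and Lpl at 1.38, and 5 lower, with Spp1 at -1.62 and Gpnmb at -1.22. Of 10 interferon genes, Cxcl9 (2.01), Ifit1 and Ifit3 were higher. Of 10 tested scavenger and endocytic receptors, Mrc1, Cd209a (2.91), Axl (2.64) and Mertk (0.80) were higher, while Msr1, Cd36 (-1.23), Clec4n and Colec12 (-1.66) were lower. Markers of CCR7 dendritic cells summed to 172 to 221 CPM over tags in C1q macrophages and 27.0 to 163 CPM in Arg1-high cells. Without cells holding dendritic cell molecules, an alternative added after seeing the data, Fcrls was at 2.64, Selenop at 1.76 and Mrc1 at 0.68, all still called, and Cbr2 at 1.36 was then called too (edgeR, adjusted p = 0.0381).

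Against Ly6c2 monocytes, the blood-derived cells from which tumour macrophages can form, all 6 tested members were higher in C1q macrophages. Lyve1, with 1 molecule in monocytes, and Fcrls, with 23, passed the low-count filter only through other pools. These 2 members could hardly come out lower, so their part in the count says little. The background was 8.66% of 8730 genes called higher and 10.8% called lower. This comparison comes from the same fit as the one above and shares its C1q macrophages. The median log2 fold change of the members was 3.32, against -0.00 over all genes. Fcrls had 4.52, 4.48 and 4.504 CPM in monocytes of tags 8, 9 and 10, and its log2 fold change of C1q macrophages over monocytes was 4.31 ± 0.25 (edgeR, adjusted p = 8.37e-07, n = 3 tags). Folr2 had 11.3, 8.97 and 12.01 CPM in monocytes and a log2 fold change of 4.01 ± 0.33 (edgeR, adjusted p = 1.15e-05). Cbr2 had 39.2, 29.1 and 45.5 CPM in monocytes and a log2 fold change of 2.62 ± 0.42 (edgeR, adjusted p = 0.00124).
In each of these, all 3 C1q pools lay above all 3 monocyte pools, and the same held for the other tested members. How many of all genes had pools apart in this way was not counted. Selenop had 457, 338 and 416 CPM in monocytes, a log2 fold change of 1.74 ± 0.14 (edgeR, adjusted p = 1.01e-05). Mrc1 had 330.1, 169 and 182 CPM in monocytes, a log2 fold change of 1.63 ± 0.12 (edgeR, adjusted p = 7.22e-06). Lyve1 had 394 molecules in C1q macrophages and 1 in monocytes (6.97 ± 1.57, edgeR, adjusted p = 0.00876).
The Lyve1 call rests on few cells, since 54 of 1224 C1q macrophages held all of its molecules, and it had too few molecules for a test without tag 10. Vsig4 had 20 molecules in C1q macrophages, 17 of them in 1 cell, and 0 in monocytes. Against the floor of 3 counts this is 2.59-fold.

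**Figure D2:**
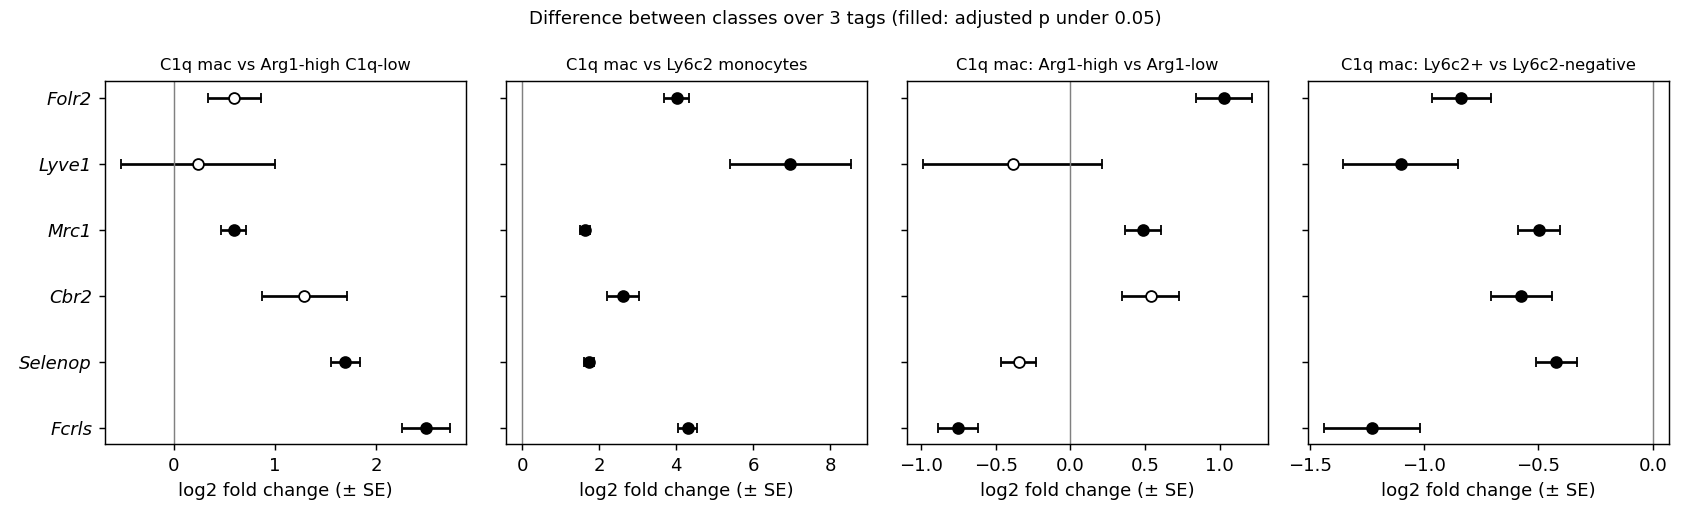
Log2 fold change with SE (horizontal axis) of the 6 tested members in 4 comparisons over 3 tags, with filled points past an adjusted p of 0.05. Fcrls is highest against Arg1-high cells at 2.49, all members are above 0 against monocytes, and within C1q macrophages the members split by Arg1 but all lie below 0 in Ly6c2-positive cells.

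The genes often seen with the members were also called higher in C1q macrophages than in monocytes, in 11 of 11 tested. Over all 8730 genes, 8.66% were called higher. Pf4 had 1338, 955 and 1614 CPM in C1q macrophages, against 139, 57.7 and 57.05 CPM in monocytes (3.94 ± 0.28). Cd163, the haemoglobin scavenger receptor gene, had 44.3, 11.5 and 69.8 CPM in C1q macrophages, against 3.77, 0 and 0 CPM in monocytes (5.39 ± 0.93). Cd163 passed the low-count filter only through other pools, so it could hardly come out lower. Ccl8 (4.88 ± 0.18), Igf1 (4.59 ± 0.29) and the scavenger receptor gene Stab1 (2.31 ± 0.20) were higher too. Of 12 lipid-associated genes 11 were higher, and of 9 hypoxia genes 7. Of 10 monocyte genes, 8 were lower in C1q macrophages, with Hp at -3.54 and Plac8 at -2.18, while Cx3cr1 (1.22) and Fn1 (0.87) were higher. Of 10 interferon genes 5 were lower, and of 7 MHC class II genes 3. The efferocytosis receptor gene Mertk (2.17 ± 0.21) was among 5 of 10 scavenger receptors that were higher. Fibroblast markers summed to 10.2 to 19.8 CPM in C1q macrophages and 28.0 to 1050.5 CPM in monocytes, where 60 cells held 2317 molecules. Without cells holding stromal molecules, all 6 members were still higher, with Folr2 at 4.01 and Fcrls at 4.25.

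Within the C1q gate, members did not follow Arg1 alike. In the 295 C1q macrophages with at least 10 Arg1 molecules, Folr2 and Mrc1 were higher and Fcrls lower than in the 866 with at most 4. Folr2 had 205, 162 and 387 CPM in the Arg1-high pools of tags 8, 9 and 10, against 157, 91.5 and 139 CPM in the Arg1-low pools. All 3 Arg1-high pools lay above all 3 Arg1-low pools, and the log2 fold change was 1.03 ± 0.19 (edgeR, adjusted p = 0.00618, n = 3 tags), or 0.67 without tag 10. Mrc1 had 902, 712.5 and 838 CPM in Arg1-high pools, against 856, 527 and 540.3 CPM in Arg1-low pools. These ranges overlapped although each tag was higher, and the log2 fold change of 0.49 ± 0.12 (edgeR, adjusted p = 0.0272) missed the threshold without tag 9 (0.48, adjusted p = 0.128) and without tag 10 (0.33, adjusted p = 0.104).
Fcrls ran the other way. It had 81.4, 44.3 and 53.2 CPM in Arg1-high pools, against 136, 72.7 and 113 CPM in Arg1-low pools. The ranges overlapped across tags, and within each tag the Arg1-high pool was lower (-0.75 ± 0.13, edgeR, adjusted p = 0.00516). Selenop had 1038, 765 and 1608 CPM in Arg1-high pools, against 1679, 1126 and 1747 CPM in Arg1-low pools, a log2 fold change of -0.35 ± 0.12 that did not pass (edgeR, adjusted p = 0.114) but was called lower without tag 10 (-0.55).
Cbr2 had 307, 111 and 479.8 CPM in Arg1-high pools, against 284, 111 and 232 CPM in Arg1-low pools, with tag 10 alone apart (0.54 ± 0.19, edgeR, adjusted p = 0.125). Lyve1 had 13.3, 0 and 50.4 CPM in Arg1-high pools, against 80.6, 2.68 and 23.6 CPM in Arg1-low pools. Tags 8 and 10 went opposite ways, and the log2 fold change was -0.39 ± 0.60 (edgeR, adjusted p = 0.776), or -2.56 without tag 10 (adjusted p = 6.21e-05).
Of 8835 genes, 5.7% were called higher and 3.38% lower in Arg1-high C1q macrophages, and the members' median log2 fold change was 0.07, against -0.02 over all genes. Plain library size moved the median of all genes to -0.13 and gave 400 genes higher and 529 lower, in place of 504 and 299. The Folr2, Mrc1 and Fcrls calls kept their directions under it. Arg1-high C1q macrophages held a median of 11904 molecules, against 8457.5 in Arg1-low ones.

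All 9 hypoxia genes were higher and all 7 MHC class II genes lower in Arg1-high C1q macrophages. Bnip3, a hypoxia-induced mitophagy gene, had 390.3, 289.8 and 397 CPM in Arg1-high pools, against 92.7, 103 and 84.8 CPM in Arg1-low pools (2.05 ± 0.15). H2-Aa had 1462, 1995 and 1111 CPM in Arg1-high pools, against 3974, 5859 and 5416 CPM in Arg1-low pools (-1.65 ± 0.13). Of 12 tested genes often seen with the members, 5 were higher and none was called lower (edgeR). Pf4 had 2159, 2374 and 3748 CPM in Arg1-high pools, against 864, 424 and 593 CPM in Arg1-low pools (2.27 ± 0.22). The leukotriene synthase gene Ltc4s (3.26 ± 0.30), F13a1 (1.52 ± 0.12), Ccl24 (1.72) and Slc40a1 (0.85) were the others. Of 12 lipid-associated genes 9 were higher, with Spp1 at 1.74 and Ctsl at 1.85, and Lpl was lower (-0.71 ± 0.10). Among the genes with the largest differences, the ectonucleotidase gene Nt5e was higher (4.22). The mast cell protease genes Mcpt4 (-4.63) and Cpa3 (-4.45) were lower, so their molecules stood mostly in the Arg1-low pools.

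Ly6c2, a monocyte gene, split the C1q gate in another way. All 6 tested members were lower in the 533 C1q macrophages with at least 2 Ly6c2 molecules than in the 536 with none, in each of the 3 tags. The background was 4.86% of 8539 genes called higher and 3.3% called lower. Fcrls had 111, 27.2 and 51.1 CPM in Ly6c2-positive pools, against 151, 119 and 136 CPM in Ly6c2-negative pools, without overlap (-1.23 ± 0.21, edgeR, adjusted p = 0.000996, n = 3 tags). Folr2 had 163, 64.5 and 155 CPM in Ly6c2-positive pools, against 223, 163 and 277 CPM in Ly6c2-negative pools (-0.84 ± 0.13, edgeR, adjusted p = 0.000431). Its ranges met at the positive pool of tag 8 and the negative pool of tag 9.
Mrc1 had 818, 473 and 493 CPM in Ly6c2-positive pools, against 970.2, 718 and 785 CPM in Ly6c2-negative pools (-0.50 ± 0.09, edgeR, adjusted p = 0.00206). Cbr2 had 287, 94.4 and 197 CPM in Ly6c2-positive pools, against 340.2, 121.5 and 409 CPM in Ly6c2-negative pools (-0.57 ± 0.13, edgeR, adjusted p = 0.0116). Both overlapped across tags.
Selenop had 1423, 877 and 1360.0 CPM in Ly6c2-positive pools, against 1585, 1267 and 2059 CPM in Ly6c2-negative pools (-0.42 ± 0.09, edgeR, adjusted p = 0.00580). Its ranges overlapped as well. Lyve1 had 29.4, 1.07 and 24.9 CPM in Ly6c2-positive pools, against 99.2, 3.797 and 31.7 CPM in Ly6c2-negative pools (-1.10 ± 0.25, edgeR, adjusted p = 0.0103). The 19 Vsig4 molecules found here were all in Ly6c2-negative cells, but in only 3 of them, and 1 cell held 17. Depth was close, with a median of 9552 molecules in Ly6c2-positive and 9342.5 in Ly6c2-negative cells.
The members' median log2 fold change was -0.71, against -0.00 over all genes. The calls leaned on tag 10: without it the directions held but only Lyve1 (-1.73) passed, with Folr2 at -0.84 (adjusted p = 0.0794) and Cbr2 at -0.28 (adjusted p = 0.36). Without tag 8, Lyve1 was at -0.48 (adjusted p = 0.403). DESeq2 called 3 members, Folr2, Mrc1 and Selenop.

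Interferon and MHC class II genes moved against the members in the Ly6c2 split. Of 10 interferon genes 9 were higher in Ly6c2-positive cells, and the regulator gene Irf7 had 225, 269 and 344 CPM there, against 69.7, 86.7 and 100.1 CPM in Ly6c2-negative cells (1.71 ± 0.10). All 7 MHC class II genes were higher, with H2-Aa at 0.77 ± 0.10. Of 10 monocyte genes 5 were higher, and Plac8 had 866, 1436 and 1093 CPM in Ly6c2-positive cells, against 267, 247 and 181 CPM in Ly6c2-negative cells (2.29 ± 0.13). Cx3cr1 (-0.68) and Fn1 (-0.88) were lower. Of 13 tested genes often seen with the members 9 were lower. Cd163 had 26.2, 2.13 and 38.2 CPM in Ly6c2-positive cells, against 67.9, 24.7 and 109 CPM in Ly6c2-negative cells (-1.67 ± 0.22). Pf4 had 939, 503 and 846 CPM in Ly6c2-positive cells, against 1630, 1538 and 2387 CPM in Ly6c2-negative cells (-1.29 ± 0.12). Igf1 (-1.96 ± 0.15) and Slc40a1 (-2.72 ± 0.44) were lower as well. Of 12 lipid-associated genes 11 were lower, with Gpnmb at -1.42 ± 0.12 and the lipid receptor gene Trem2 at -0.89.

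Members met in the same C1q macrophages more often than independent detection gives. Each of the 1189 C1q macrophages with enough depth was thinned to 2000 molecules, and pairs were counted within each tag, with the odds ratio pooled over tags as a description. Of 15 pairs with both members in at least 15 cells, 14 had a finite odds ratio, all above 1, with a median of 4.06. Their counting intervals lay above 1 in 13. The last pair had none, since all 24 thinned Lyve1 cells also held Selenop. Folr2 and Cbr2 met in 119 cells, against 49.1 for independent detection within tags, an odds ratio of 7.23 (95% interval 5.21 to 10.02). The 3 tags gave 6.97, 5.89 and 8.07.
Lyve1 was the most nested of the members. Of 24 Lyve1 cells, 19 held Folr2 (odds ratio 14.97, interval 5.54 to 40.5), and the pair of Lyve1 and Mrc1 reached 23.8 (2.94 to 193). Fcrls went most with Selenop (4.60) and less with Folr2 (2.51), Cbr2 (2.55) and Mrc1 (2.19, interval 1.42 to 3.39). Its odds ratio with Lyve1 was 2.23, with an interval of 0.809 to 6.12. Genes of 1 cell share its depth and capture, and no p is given. Pairs of other genes were not counted in these cells, so odds ratios above 1 are not shown to be particular to the members.

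**Figure D3:**
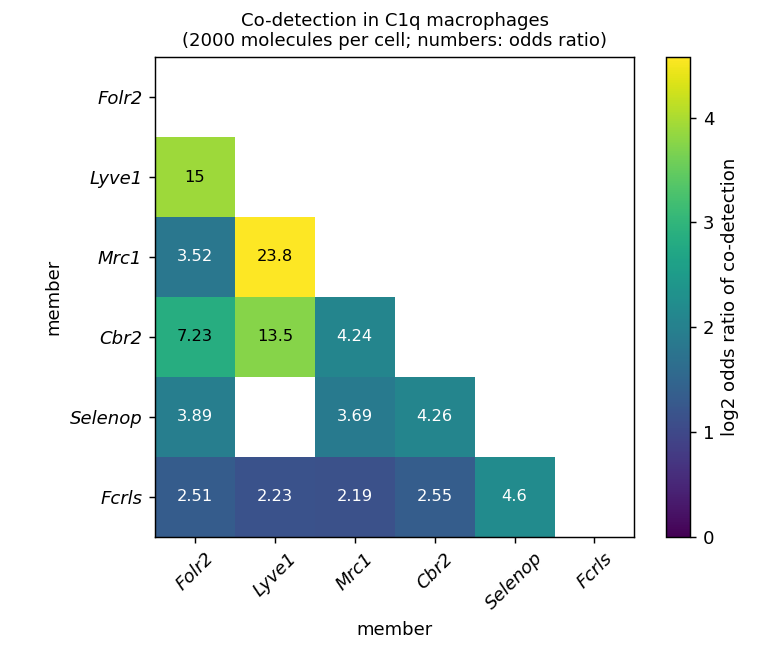
Odds ratio of co-detection for pairs of 6 members in 1189 C1q macrophages thinned to 2000 molecules, pooled over 3 tags (numbers), with colour on a log2 scale. Values run between 2.19 for Mrc1 with Fcrls and 23.8 for Lyve1 with Mrc1, and the Lyve1 with Selenop square is blank because all 24 Lyve1 cells held Selenop.

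Several members stood together mainly in C1q macrophages. At 2000 molecules per cell, 24.6% of C1q macrophages held 3 or more members (293 of 1189, exact 95% interval 22.2 to 27.2). Against this stood 8.39% of Arg1-high cells (26 of 310), 6.53% of other myeloid cells (47 of 720), 2.83% of monocytes (21 of 741) and 0 of 2056 T cells. The T cell count allows a share of up to 0.146% (3 counts of the total), or 0.179% by the exact interval. In C1q macrophages the share was 29.0%, 17.0% and 27.9% in tags 8, 9 and 10. Among these C1q macrophages, 260 held no member, 330 held 1, 306 held 2, 165 held 3, 94 held 4, 32 held 5 and 2 held 6. No cell held all 7.
The share was 31.9% in Arg1-high and 21.5% in Arg1-low C1q macrophages, higher in the Arg1-high cells of each tag. It was 17.6% in Ly6c2-positive and 31.3% in Ly6c2-negative C1q macrophages, lower in the Ly6c2-positive cells of each tag. In tag 10 the values were 18.2% in Ly6c2-positive and 37.0% in Ly6c2-negative cells.

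**Figure D4:**
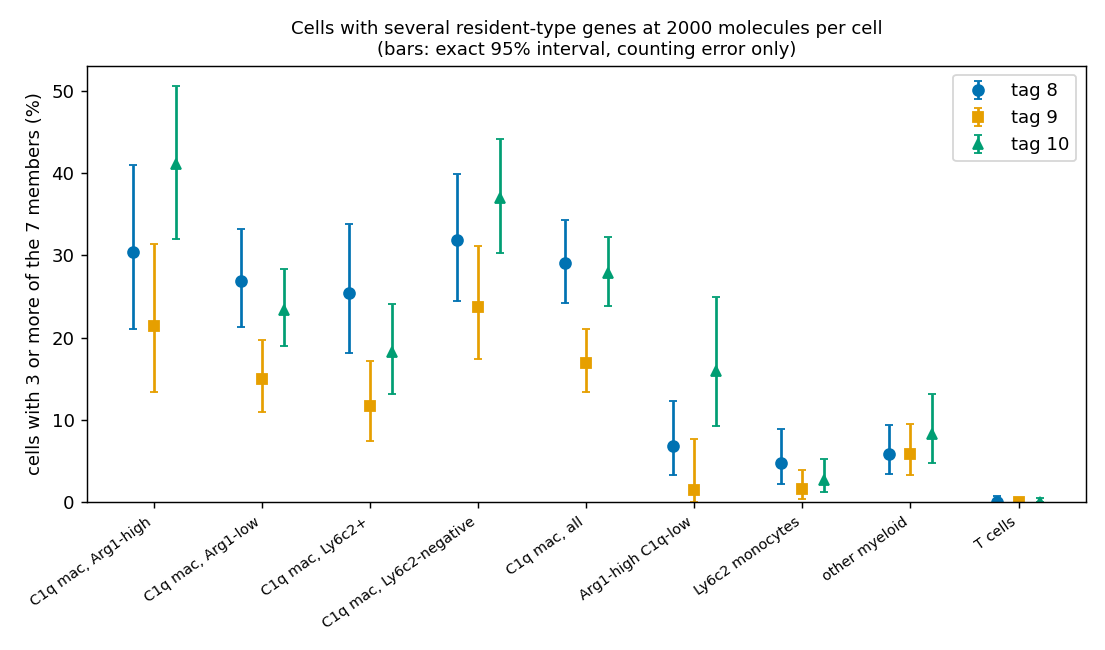
Share of cells (percent, vertical axis) with 3 or more of the 7 members at 2000 molecules per cell, by class and tag, with exact 95% intervals that cover counting error only. C1q macrophages stand at 29.0%, 17.0% and 27.9% in tags 8, 9 and 10, above monocytes and T cells of every tag. Arg1-high C1q-low cells of tag 10 stand at 16.0%, within the interval of C1q macrophages of tag 9.

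The same thinned cells were then compared on levels across tags. This restates the co-detection with tags as replicates and is no separate evidence for it. C1q macrophages thinned to 2000 molecules were divided by whether they held a molecule of 1 member, and the other members were compared between the 2 sets within tags. These splits divide the same cells in different ways and are not independent of one another. In the 229 Folr2-positive C1q macrophages, against 960 Folr2-negative ones, all 4 tested members were higher, beside 1.66% of 4827 genes called higher and 1.37% called lower. Cbr2 had 799, 406 and 865 CPM in Folr2-positive pools, against 126, 62.5 and 145 CPM in Folr2-negative pools, without overlap (2.64 ± 0.15, edgeR, adjusted p = 1.39e-08, n = 3 tags). Selenop had 2493, 2377 and 2688 CPM in Folr2-positive pools, against 1042, 775 and 1162 CPM in Folr2-negative pools (1.36 ± 0.12, edgeR, adjusted p = 1.18e-06). Mrc1 had 1111, 1057 and 1053 CPM in Folr2-positive pools, against 731, 463 and 394 CPM in Folr2-negative pools (1.07 ± 0.15, edgeR, adjusted p = 0.000342).
Neither Selenop nor Mrc1 overlapped between the sets, but the Mrc1 call was lost without tag 9 (1.02, adjusted p = 0.109). Fcrls had 139, 141.5 and 139 CPM in Folr2-positive pools, against 95.4, 41.7 and 62.2 CPM in Folr2-negative pools (1.09 ± 0.27, edgeR, adjusted p = 0.0353). That call was lost without tag 9 (0.87, adjusted p = 0.292) and without tag 10 (1.04, adjusted p = 0.11), and it passed in 4 of 5 random draws of the thinning. Lyve1 had 62 molecules in Folr2-positive and 8 in Folr2-negative cells and was not tested.

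Folr2-positive C1q macrophages also differed in genes outside the set. Of 10 tested genes often seen with the members, 8 were higher, and Ccl8 had 792, 1792 and 937.5 CPM in Folr2-positive pools, against 149, 292 and 289 CPM in Folr2-negative pools (2.22 ± 0.16). Ltc4s (2.43), Gas6 (2.19), Pf4 (1.57 ± 0.13), F13a1 (1.31), Igf1 (1.20), Stab1 (1.08) and the transcription factor gene Maf (0.85) were the others. Of 7 MHC class II genes 6 were lower, and H2-Ab1 had 1618, 2038 and 1966 CPM in Folr2-positive pools, against 4059, 5680 and 5931 CPM in Folr2-negative pools (-1.47 ± 0.11). Of 10 interferon genes, Cxcl9 alone was called. This chemokine gene had 6.94, 0 and 101 CPM in Folr2-positive pools, against 179, 804 and 733 CPM in Folr2-negative pools (-3.64 ± 0.35). Of 12 lipid-associated genes, Apoe (0.70), Ctsd (0.60), Ctsb (0.59) and Ctsl (0.86) were higher. The monocyte gene Plac8 was lower (-1.16).

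**Figure D5:**
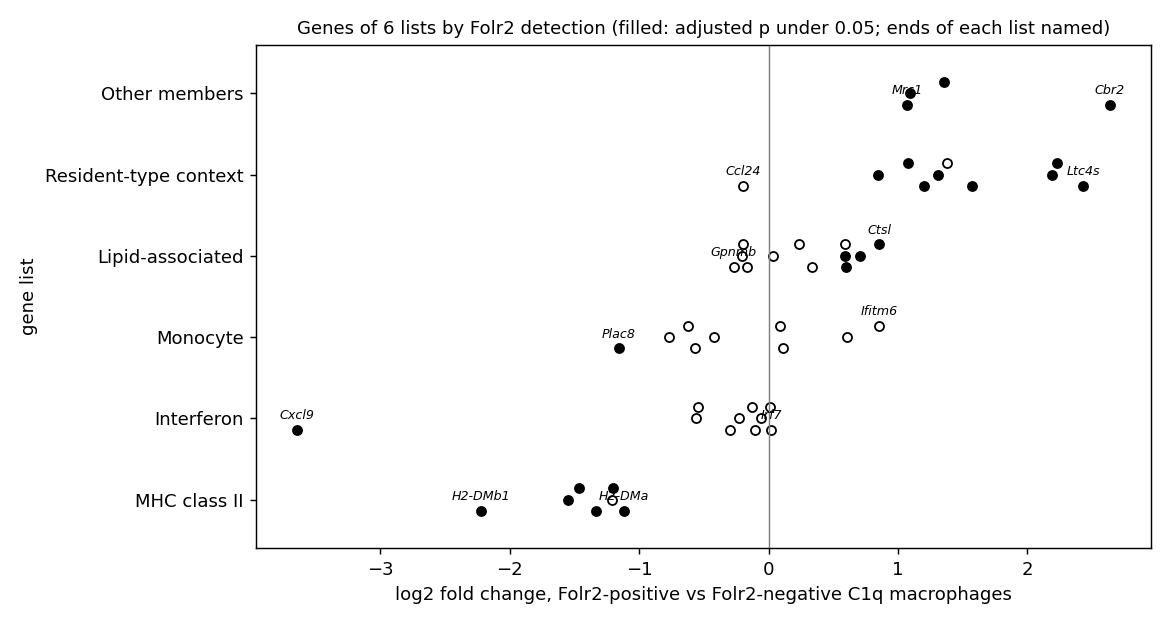
Log2 fold change (horizontal axis) between 229 Folr2-positive and 960 Folr2-negative C1q macrophages for genes of 6 lists, 1 point per tested gene and filled past an adjusted p of 0.05. The other members and most resident-type context genes lie above 0, with Cbr2 at 2.64, and the MHC class II genes lie below 0, with H2-Ab1 at -1.47. Cxcl9, of the interferon list, lies at -3.64.

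Splits by Cbr2, Mrc1 and Selenop gave the same directions. In the 240 Cbr2-positive C1q macrophages all 4 tested members were higher than in 949 Cbr2-negative ones, beside 1.86% of 4780 genes called higher and 1.69% lower. Folr2 had 584, 533 and 453 CPM in Cbr2-positive pools, against 97.3, 59.6 and 77.6 CPM in Cbr2-negative pools (2.73 ± 0.18, edgeR, adjusted p = 9.07e-10). Fcrls had 221, 156 and 148 CPM in Cbr2-positive pools, against 70.04, 42.2 and 56.0 CPM in Cbr2-negative pools (1.61 ± 0.24, edgeR, adjusted p = 0.000129). Neither overlapped. Cd163 had 129.9, 33.3 and 203 CPM in Cbr2-positive pools, against 3.89, 8.72 and 2.87 CPM in Cbr2-negative pools (4.51 ± 0.50).
In the 616 Mrc1-positive C1q macrophages, against 573 Mrc1-negative ones, all 4 tested members were higher too, beside 2.87% of 5123 genes called higher and 3.55% lower. Folr2 had 274, 195 and 283 CPM in Mrc1-positive pools, against 87.0, 41.7 and 80.7 CPM in Mrc1-negative pools (1.85 ± 0.18). The gain of Fcrls was 0.95 ± 0.26 (edgeR, adjusted p = 0.0115), and it was lost without tag 9 (0.58, adjusted p = 0.334). The resistin-like gene Retnla was among the genes with the largest differences (3.25).
In the 764 Selenop-positive C1q macrophages, against 425 Selenop-negative ones, all 4 tested members were higher, beside 2.48% of 4925 genes called higher and 2.96% lower. Fcrls had 135, 98.6 and 104 CPM in Selenop-positive pools, against 34.7, 2.84 and 27.0 CPM in Selenop-negative pools (2.47 ± 0.32). All 70 Lyve1 molecules of the thinned cells were in Selenop-positive cells, at least 12.98-fold higher against the floor of 3 counts.

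The Fcrls split was the weakest. In 110 Fcrls-positive C1q macrophages, against 1079 Fcrls-negative ones, 2 of 5 tested members were higher, beside 0.571% of 4550 genes called higher and 0.923% lower. Selenop had 2216, 2739 and 3209 CPM in Fcrls-positive pools, against 1224, 884 and 1329 CPM in Fcrls-negative pools (1.21 ± 0.14, edgeR, adjusted p = 0.000215). Cbr2 had 443, 391 and 453.5 CPM in Fcrls-positive pools, against 245, 91.5 and 291 CPM in Fcrls-negative pools (0.99 ± 0.23, edgeR, adjusted p = 0.0404). Both were higher in every tag and did not overlap.
Folr2 had 239, 348 and 291 CPM in Fcrls-positive pools, against 205, 99.7 and 161 CPM in Fcrls-negative pools, and did not pass (0.82 ± 0.27, edgeR, adjusted p = 0.166). Mrc1 (0.45 ± 0.15, edgeR, adjusted p = 0.194) and Lyve1 (0.40 ± 0.76, edgeR, adjusted p = 0.916) did not pass either. Over 5 draws of the thinning, Folr2 lay between 0.82 and 1.34 and passed in 2, and Mrc1 between 0.45 and 1.03 and passed in 3. Of 10 tested genes often seen with the members, Igf1 (1.72), Gas6 (1.69), Ccl8 (1.32) and Pf4 (0.64) were higher, and Cd163 was at -0.47 ± 0.62 (edgeR, adjusted p = 0.849). Of 12 lipid-associated genes 5 were higher, with Trem2 at 1.27 and Apoe at 1.09. Of 7 MHC class II genes 4 were lower. Plain library size gave 32 genes higher and 34 lower, in place of 26 and 42, and DESeq2 17 and 15. Without tag 9 or tag 10 at most 1 member was called.

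Lyve1 marked a small set of cells that often held other members. Before thinning, 54 C1q macrophages had a Lyve1 molecule, 20, 4 and 30 in tags 8, 9 and 10, with 216, 8 and 170 molecules. All 54 also held Mrc1 and Selenop, 49 held Folr2, 48 Cbr2, 26 Fcrls and none Vsig4. Of the same cells 54 held Pf4, 53 Stab1, 50 F13a1 and 21 Cd163. Their median depth was 15438 molecules, against 9305.5 in the other 1170 C1q macrophages, so levels are given in CPM. Folr2 had 585, 856 and 762 CPM in the Lyve1 cells of tags 8, 9 and 10, against 151, 98.3 and 158 CPM in the others. Summed over tags, Cbr2 had 1104 CPM in Lyve1 cells against 186 CPM in the others, and Selenop 3581 against 1277 CPM.
Fcrls differed less, at 172 CPM in Lyve1 cells and 89.0 CPM in the others. Cd163 had 352 CPM in Lyve1 cells and 21.9 CPM in the others, while H2-Aa had 1433 and 4107 CPM. Lyve1 is also a lymphatic endothelial gene, and the lymphatic markers Prox1 and Flt4 were at 0 in all 54 cells, with Pecam1 in 7 and Cdh5 in 1. Of the fibroblast markers, Dcn was at 0, Col3a1 was in 1 cell and Col1a1 in 5. Prox1, Flt4 and Dcn were in only 3, 10 and 10 of the other 1170 C1q macrophages, so 0 of 54 tells little. These contrasts were not tested, since tag 9 had 4 such cells.
Vsig4 was rarely detected. It was found in 4 of 1224 C1q macrophages (0.327%), and 1 of them held 17 of the 20 molecules. All 4 held Mrc1 and Selenop, and 3 held Folr2. The Kupffer cell gene Cd5l summed to 2.31 to 9.92 CPM and the microglia markers Tmem119, P2ry12 and Sall1 to 22.9 to 45.5 CPM over tags in C1q macrophages.

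Over the 12 gates and 3 tags (36 points), the genes whose log2 level was most like the mean of the members were Pf4 (Pearson r 0.897), Ccdc152 (0.893), Ms4a7 (0.890), Mertk (0.890) and Gdf3 (0.883). The points share libraries, and most members are near 0 in most gates, so these are descriptions. Ccdc152 had 141 molecules in all and overlaps the end of Selenop, so its level is uncertain: the handling of strand is not given in the sources used here. Among the members, Folr2 was most like Fcrls (0.873), Mrc1 (0.862) and Cbr2 (0.856), and the lowest value was 0.317 for Mrc1 with Vsig4.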

How the data were processed

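Counts of molecules per gene and cell were deposited by the authors. Per the file headers they were made with BD's Rhapsody WTA pipeline, version 1.9.1, which collapses molecular identifiers and corrects errors, on GRCm38 with GENCODE vM19. GRCm39 stands in the submitters' processing notes, and coordinates here come from GRCm38 annotation only, matched by gene name. The deposited tag calls gave each cell's pool, and barcodes listed more than once numbered 0. A targeted library is mentioned in the series text, but header and title name whole transcriptome data.

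Kept cells had 1 tag, 200 or more genes found and a mitochondrial share of 25% or less (3336, 3486 and 3669 cells in tags 8, 9 and 10). Cells were gated on counts, not clustered. From macrophage and monocyte gates, cells with signatures of other lineages were left out: 179 of 1403 cells with 10 or more C1q molecules. No doublet caller was run beyond these exclusions and the authors' multiplet tags, and 2707 kept cells fell in no gate. Thinning drew 2000 molecules per cell with a fixed seed, and 4 further draws were added after seeing the data, as were fits without Lyve1 cells, without cells holding stromal molecules and without cells holding dendritic cell molecules.

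Counts were summed per tag and class and tested with edgeR 4.0.16 (R 4.3.3) quasi-likelihood, TMM scaling, filterByExpr and terms for class and tag, with Benjamini-Hochberg adjustment over all tested genes and calls at an adjusted p under 0.05. The tag term is the replicate block: the classes of 1 tag come from the same tumours, per the labels' protocols. DESeq2 1.42.0, plain library size, no filter, no block, other gates and leaving out each tag were alternatives. Levels are counts per 1e+06 molecules (CPM) with exact Poisson intervals, shares have exact Clopper-Pearson intervals, and odds ratios are Mantel-Haenszel over tags (Python 3.11.15, scipy 1.17.1). A fit needed at least 5 positive cells in each tag, so Lyve1 and Vsig4 have no split. The scripts were tested on simulated counts.

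Named genes are the members, the fixed lists, up to 5 genes each way with the largest called fold that moved alike in all 3 tags, with at least 50 molecules, and the 5 genes most like the members. The members and lists were chosen with earlier results of these data known.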

Additional observations from a re-analysis of the deposited data

Results flagged for a closer look

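Lyve1 went opposite ways in different tags in 2 comparisons, and the difference between tags was not tested. C1q macrophages minus Arg1-high C1q-low macrophages gave 55.3 CPM in tag 8 and -47.9 CPM in tag 10. In tag 10 all 66 Arg1-high molecules stood in 1 cell. Arg1-high minus Arg1-low C1q macrophages gave -67.3 CPM in tag 8 and 26.8 CPM in tag 10.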

How the results depend on the processing

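Tags served as replicates, so depth is not the only limit: 3 pools, 1 capture and, for Lyve1 and Vsig4, few cells bound what can be seen. Unless a value says otherwise the cause of a change was not tested. Against Arg1-high cells, 5 members were higher (3 in the reported fit) with a C1q sum of at least 5, with plain library size, without the low-count filter and without tag 10; leaving out a tag gave 2 to 5 higher and 0 to 1 lower. Lyve1 there turned to -0.033 with Arg1 of at least 20 and ranged between -1.36 and 0.19 without a tag. Against monocytes, 5 or 6 members were higher under every setting run. In the Arg1 split, 2 members were lower (1 in the reported fit) with Arg1 of at least 20, plain library size, no filter and thinning to 2000 molecules, 1 was higher (2 in the reported fit) with a C1q sum of at least 20, and leaving out a tag gave 1 to 2 higher and 1 to 3 lower. Lyve1 there was 0.13 without lineage exclusions and ranged between -2.56 and 1.04 without a tag. In the Ly6c2 split, 3 members were lower (6 in the reported fit) by DESeq2 and 3 without Lyve1 cells, and leaving out a tag gave 1 to 6. Over all genes, counts of higher and lower calls ran over the settings between 199 and 1134 (453 reported) and 438 and 815 (767) against Arg1-high cells, 418 and 991 (756) and 440 and 1026 (943) against monocytes, 298 and 671 (504) and 134 and 555 (299) in the Arg1 split, and 69 and 543 (415) and 25 and 395 (282) in the Ly6c2 split. In the member splits they ran between 18 and 112 (80) and 9 and 166 (66) for Folr2, 38 and 161 (147) and 40 and 199 (182) for Mrc1, 37 and 124 (89) and 26 and 162 (81) for Cbr2, 21 and 147 (122) and 23 and 195 (146) for Selenop, and 0 and 52 (26) and 3 and 155 (42) for Fcrls.

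In the Fcrls split, 4 members were higher (2 in the reported fit) in the fifth draw and 1 with thinning to 1000 molecules; leaving out a tag gave 0 to 3, and Lyve1 ranged between -0.55 and 1.24, with -0.04 without tag 9. Without tag 10 edgeR called 0 there, with 3 at an unadjusted p under 0.05. The share of C1q macrophages with 3 or more members was 12.99% at 1000 molecules, 28.8% with a C1q sum of at least 20 and 22.5% to 28.4% without a tag. The median odds ratio was 2.68 at 1000 molecules, where Lyve1 with Fcrls was 0.888; that pair was 0.755 in the third draw and ranged between 0.850 and 5.17 without a tag.

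In the fit without the replicate block, which ignores that classes of 1 tag share tumours, the Arg1 split called 0 members higher and 0 lower (edgeR, 2 and 1 at an unadjusted p under 0.05), the Ly6c2 split 0 lower (3 at an unadjusted p under 0.05) and the Fcrls split 1 higher, and Lyve1 against Arg1-high cells was -0.050. Calls lost in that fit were also Mrc1 against Arg1-high cells (0.58, adjusted p = 0.194), Lyve1 against monocytes (6.86, adjusted p = 0.0730; 0.0756 by DESeq2), and Fcrls in the Folr2 split (1.11, adjusted p = 0.0806) and in the Mrc1 split (0.998, adjusted p = 0.141).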

Other observations

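Beyond the lists, the genes with the largest differences that moved alike in all 3 tags included genes of other kinds. Fcna, which encodes the lectin ficolin A, was higher in C1q macrophages than in Arg1-high cells (log2 fold change 4.76) and than in monocytes (4.73), in comparisons that share the C1q macrophages. Il12b, a cytokine subunit gene, was higher in C1q macrophages than in Arg1-high cells (6.04), while the caveolin gene Cav1 (-3.26) and the prostaglandin synthase gene Ptges (-2.91) were lower. The C1q gate left out plasmacytoid cells but no other dendritic cells, and their part in the Il12b difference was not tested. Within the C1q gate, Cav1 (3.92) and the gelatinase gene Mmp9 (3.85) were higher in Arg1-high cells. In Folr2-positive C1q macrophages the endothelin receptor gene Ednrb was higher (1.86), and the interferon-induced GTPase gene Gbp2 (-2.41) and Ly6i (-4.00) were lower. In Ly6c2-positive C1q macrophages the haemoglobin gene Hbb-bt was lower (-5.07).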
